A study of Mus musculus with 16 samples.

Results

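The genes described here encode 8 proteins of peroxisomal fatty acid oxidation: the membrane transporters Abcd3 and Abcd2, the carnitine acyltransferase Crot, the bifunctional enzymes Hsd17b4 and Ehhadh, the thiolases Acaa1a and Acaa1b, and the peroxisome division factor Pex11a. They were picked by symbol from the mRNA table of mouse quadriceps muscle, with earlier results of these data known. They are 8 of 23970 symbols in the table, and all 8 were among the 11256 genes tested, whose mean reached 0.5 FPKM (fragments mapped to a gene, divided by transcript length in kilobases and by library size).

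The libraries came from male C57BL/6NTac mice aged 16 weeks that ate a control diet (CON) with 10% of energy from fat or a high-fat diet (HFD) with 60% of energy from fat for 10 weeks. Muscle was taken either without exercise (pre) or 3 h after a single maximal treadmill run (post), and the pre and post muscles came from different mice. This gave 4 groups of 4 libraries, named CON-pre, CON-post, HFD-pre and HFD-post. All 4 groups shared a treadmill acclimatisation session and a period without food, which for the runners began 3 h before the run, so the pre groups are rested but not treadmill-naive, and all mice were male. A whole muscle holds fibres together with fat, vessel and immune cells, and in such bulk samples fewer cells of a type and less RNA per cell cannot be told apart.

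Peroxisomes shorten very-long-chain, branched and dicarboxylic fatty acids that mitochondria handle poorly. Transporters of the ABCD family bring the acyl-CoAs in, an oxidase starts each cycle, a bifunctional enzyme carries out the hydration and dehydrogenation, and a thiolase releases acetyl-CoA. The shortened chains are then linked to carnitine for export to mitochondria, and many of these genes are known targets of the fatty acid sensor PPARα, most strongly in liver.

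The upstream promoter stretches of 2 members are shown because their diet results differ: Pex11a had the largest diet difference of the 8 genes and Ehhadh had no detectable one, although both are textbook targets of PPARα in liver. Each run gives the 250 bases before the RefSeq transcription start on build GRCm38.p6, written 5′ to 3′ on the gene's own strand, which is the minus strand for both. Capitals mark the half-site AGGNCA in either orientation, where N is any base.

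Pex11a upstream, chr7:79743132-79743381: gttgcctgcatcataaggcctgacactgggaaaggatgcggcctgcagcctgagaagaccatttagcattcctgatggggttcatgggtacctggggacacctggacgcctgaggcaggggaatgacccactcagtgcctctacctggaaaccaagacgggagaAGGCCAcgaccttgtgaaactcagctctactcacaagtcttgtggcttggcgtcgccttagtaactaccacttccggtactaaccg

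Ehhadh upstream, chr16:21787835-21788084: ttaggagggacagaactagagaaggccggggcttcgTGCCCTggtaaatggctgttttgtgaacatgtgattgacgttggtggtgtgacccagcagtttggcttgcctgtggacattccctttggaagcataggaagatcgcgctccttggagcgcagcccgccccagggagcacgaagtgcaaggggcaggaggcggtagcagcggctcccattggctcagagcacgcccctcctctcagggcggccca

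The Pex11a stretch held 1 half-site, whose first base lay 86 bases before the start in the gene's own direction. The Ehhadh stretch held 1 half-site in the opposite orientation, and it began 214 bases before the start. PPAR receptors bind with a retinoid X receptor partner to a pair of AGGTCA half-sites in direct repeat with 1 base between them. Promoter windows running to 50 bases past the start were listed for 6 of the 8 genes. The half-site AGGNCA, searched on both strands, occurred in 5 of the 6 genes. Counted per window it was in 5 of 7, since Abcd3 has 2 listed windows of which 1 held it, and in 57.2% of all 32851 listed promoters. The stricter AGGTCA occurred in 0 of the 7 windows and in 16.3% of all promoters. The direct repeat with 1 spacer base was found in 0 of the 7 with either spelling, against 0.0396% of all promoters for AGGTCA and 0.381% for AGGNCA. These counts describe the letters in the windows and say nothing about binding.

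The muscle identity of the libraries was clear, with the 10 skeletal muscle markers summing to between 73280 and 105581 FPKM in each library. The 16 adipocyte markers summed to between 846 and 1100 FPKM in CON-pre, 893 and 1041 in HFD-pre, 870 and 1140 in CON-post, and 787 and 1408 in HFD-post. Car3, with group means from 363 to 473 FPKM, and Fabp4, from 276 to 401, made up most of these sums. Adipoq had group means from 17.4 to 28.2 FPKM, so the sums need not follow every marker. The liver marker sums were low but uneven, from 20.1 to 35.6 FPKM in 5 libraries and at most 7.47 in the other 11. They ranged from 0.346 to 28.8 FPKM in CON-pre, 0.300 to 30.7 in HFD-pre, 0.271 to 1.36 in CON-post and 0.872 to 35.6 in HFD-post, and their part in the results was not tested. The smallest values put the library depths at between 0.707 and 1.12 times that of CON-pre replicate 1. HFD-post replicate 1 stood apart: it had the lowest muscle, adipocyte and macrophage marker sums and the highest liver sum of the 16 libraries, and it was the highest or lowest library for 4 of the 8 genes.

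The peroxisomal genes were expressed at low to moderate levels, and some neighbours in the order of their levels changed places between libraries. Averaged over 16 libraries, Abcd3 reached 19.5 ± 2.16 FPKM (SD) and Hsd17b4 19.5 ± 3.21. These 2 genes could not be ordered, since each was the higher one in 8 of 16 libraries. Crot followed at 14.8 ± 1.74 FPKM. Acaa1a at 9.96 ± 2.29 and Abcd2 at 9.29 ± 1.51 were also not separated, with Acaa1a higher in 9 of 16 libraries. Pex11a averaged 8.02 ± 2.32 FPKM and was below Abcd2 in 12 of 16 libraries, although in HFD-post its mean of 10.7 exceeded the 7.87 of Abcd2. Ehhadh at 2.20 ± 0.393 and Acaa1b at 1.65 ± 0.387 were the lowest, and Pex11a was above Ehhadh in 16 of 16 libraries. FPKM is scaled to transcript length, so levels of different genes can be set side by side. Over the 16 libraries together, group differences included, the coefficient of variation ran from 11.0% for Abcd3 to 28.9% for Pex11a.

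**Figure D1:**
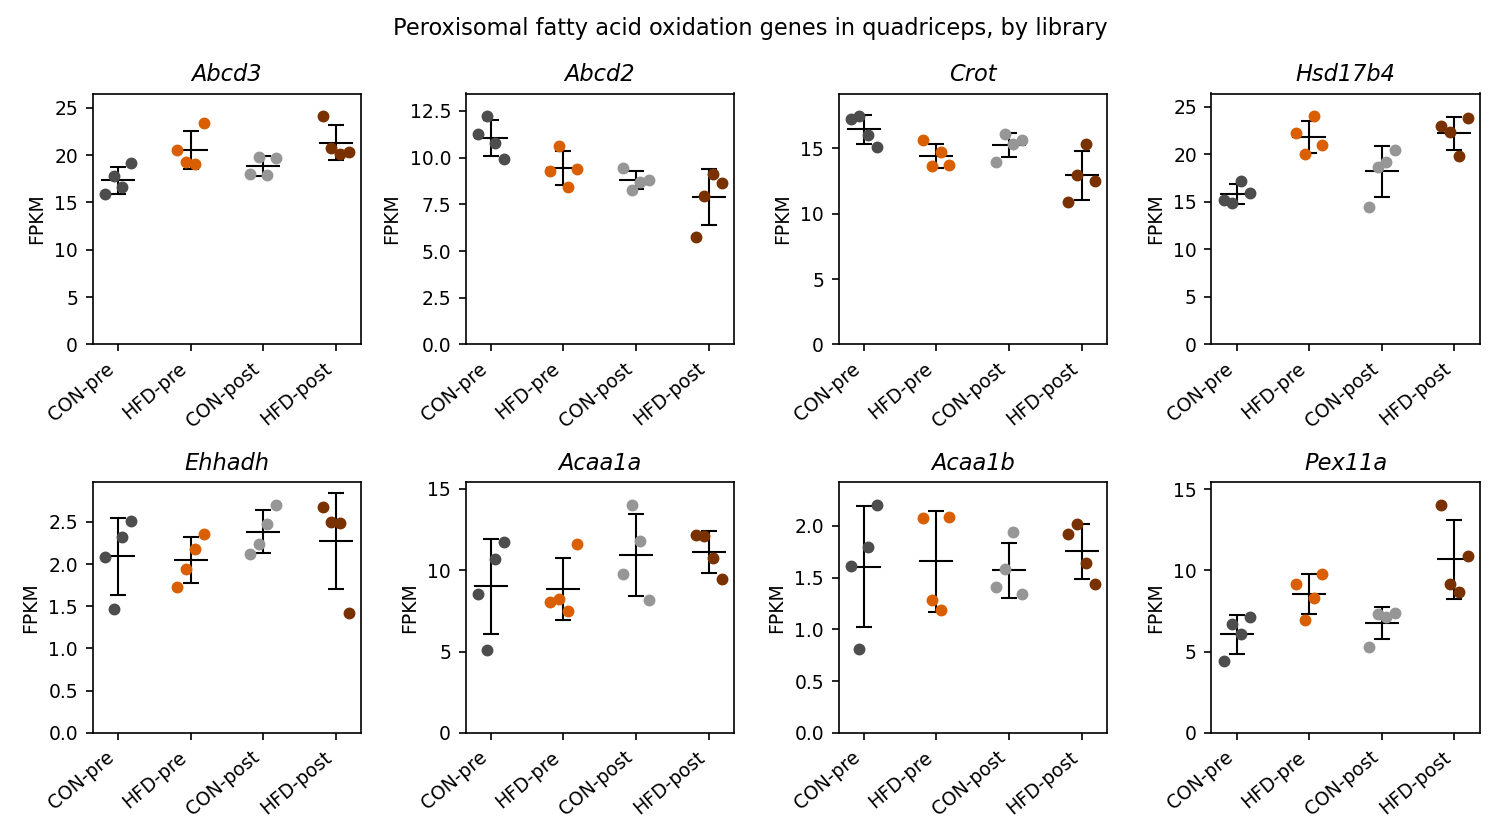
Level of each of the 8 genes in FPKM (vertical axes, each starting at 0) in the 4 groups; points are single libraries in replicate order, horizontal bars are means and whiskers are SD (n = 4). HFD-pre Hsd17b4 lies wholly above CON-pre, and HFD-post Pex11a and Abcd3 lie wholly above CON-post.

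The first comparison asked how the 10-week diet altered expression. Averaged over the rested and exercised states, 2 of the 8 genes were higher on HFD at an adjusted p under 0.05, Hsd17b4 and Pex11a, and none was lower. Across all genes tested the same rule called 0.959%, with 0.489% higher and 0.471% lower. The 8 genes did not move one way: 5 had a positive and 3 a negative log2 fold change, with a median of 0.06 against −0.02 for all genes tested. The median of the 8 depended on single libraries: it ran from −0.05 without CON-pre replicate 2 to 0.13 without CON-pre replicate 4, and was 0.0019 without HFD-pre replicate 4 and 0.00998 with array weights. At an unadjusted p under 0.05 there were 5 of 8, Hsd17b4, Pex11a and Abcd3 on the higher side and Crot and Abcd2 on the lower side, where the background was 10.4%. Differences between groups are given as log2 fold changes of FPKM + 0.5 with their standard errors (SE), from limma with Benjamini-Hochberg adjustment over the 11256 genes.

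Among the transporters, Abcd3 (the major peroxisomal membrane ABC protein, which imports branched-chain and long-chain dicarboxylic acyl-CoAs) measured 15.9, 17.8, 16.7 and 19.1 FPKM in CON-pre and 20.6, 19.2, 19.1 and 23.4 in HFD-pre. After exercise it measured 17.99, 19.8, 17.94 and 19.7 in CON-post and 24.1, 20.8, 20.1 and 20.3 in HFD-post. The 4 HFD-post libraries were all above the 4 CON-post libraries, HFD-pre overlapped CON-pre only at its low end, and 6 of 8 HFD libraries exceeded every CON library. The diet difference was 0.20 (SE 0.06, 95% interval 0.08 to 0.33), a mean 1.16-fold higher, and its adjusted p of 0.157 missed the threshold. Without HFD-post replicate 1, the highest Abcd3 library, it was 0.17 (adjusted p = 0.257).

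Abcd2, which carries very-long-chain and polyunsaturated acyl-CoAs, showed the opposite sign. It measured 11.3, 12.2, 10.8 and 9.95 FPKM in CON-pre, 9.29, 10.6, 8.44 and 9.42 in HFD-pre, 9.44, 8.26, 8.67 and 8.81 in CON-post, and 5.75, 7.95, 9.14 and 8.65 in HFD-post. Both diets overlapped in each exercise state, and the lowest value, 5.75, was that of HFD-post replicate 1. The diet difference was −0.19 (SE 0.08, 95% interval −0.37 to −0.02, adjusted p = 0.404), and −0.13 without that library.

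Crot attaches medium-chain acyl groups to carnitine so that the shortened chains can leave the peroxisome. It measured 17.2, 17.4, 16.0 and 15.1 FPKM in CON-pre and 15.6, 13.6, 14.7 and 13.7 in HFD-pre. After exercise it measured 13.98, 16.1, 15.3 and 15.6 in CON-post and 10.9, 12.9, 15.3 and 12.5 in HFD-post. The diets overlapped in both states, although 5 of 8 HFD libraries lay below every CON library, and HFD-post replicate 1 was again the lowest of the 16. The diet difference was −0.21 (SE 0.06, 95% interval −0.35 to −0.08, adjusted p = 0.174), and it became a call only without HFD-post replicate 3 (−0.25, adjusted p = 0.0489). Without HFD-post replicate 1 the Crot difference was −0.17 (adjusted p = 0.280).

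Hsd17b4, the D-bifunctional protein that serves very-long-chain and branched substrates and bile acid precursors, had the smallest adjusted p of the 8 genes. It measured 15.2, 14.8, 17.2 and 15.9 FPKM in CON-pre and 22.3, 20.0, 24.0 and 20.9 in HFD-pre. After exercise it measured 14.4, 18.7, 19.2 and 20.5 in CON-post and 22.9, 22.4, 19.8 and 23.8 in HFD-post. Every HFD-pre library was above every CON-pre library, whereas in the exercised mice the highest CON-post library exceeded the lowest HFD-post library. Over both states Hsd17b4 averaged 17.0 ± 2.26 FPKM on CON and 22.01 ± 1.61 on HFD (SD, n = 8), a 1.30-fold higher mean. The diet difference was 0.37 (SE 0.07, 95% interval 0.22 to 0.52, adjusted p = 0.0134). It was called in 28 of 28 alternative fits of this contrast, with adjusted p between 0.00329 and 0.0383.

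Ehhadh, the L-bifunctional protein that handles straight-chain and dicarboxylic substrates in the same steps, measured 2.08, 1.46, 2.32 and 2.51 FPKM in CON-pre and 1.73, 1.94, 2.18 and 2.35 in HFD-pre. After exercise it measured 2.12, 2.24, 2.47 and 2.70 in CON-post and 2.68, 2.50, 2.49 and 1.43 in HFD-post. The diets overlapped in both states, and the lowest of the 16 values was that of HFD-post replicate 4. The diet difference was −0.05 (SE 0.11, adjusted p = 0.946), with a 95% interval from −0.28 to 0.19. Its group means were 2.05 to 2.38 FPKM, and the 0.37 measured for Hsd17b4 lay outside that interval.

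The thiolases cleave the chain in the last step of each cycle. Acaa1a measured 8.52, 5.08, 10.7 and 11.7 FPKM in CON-pre, 8.04, 8.20, 7.46 and 11.6 in HFD-pre, 9.74, 14.001, 11.8 and 8.16 in CON-post, and 12.1, 12.1, 10.7 and 9.46 in HFD-post. Acaa1b measured 1.62, 0.809, 1.80 and 2.20 in CON-pre, 2.07, 1.28, 1.19 and 2.08 in HFD-pre, 1.41, 1.59, 1.94 and 1.35 in CON-post, and 1.92, 2.02, 1.65 and 1.44 in HFD-post. Both genes were lowest in CON-pre replicate 2, and all groups overlapped. The diet differences were 0.03 (SE 0.15, 95% interval −0.29 to 0.35, adjusted p = 0.969) for Acaa1a and 0.09 (SE 0.14, 95% interval −0.21 to 0.39, adjusted p = 0.893) for Acaa1b. The 2 genes are close copies that both lie on chromosome 9. How the counting assigned any reads that match both is not known here and was not tested, so their separate levels are uncertain.

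Pex11a promotes elongation and division of peroxisomes and is the member of its family that responds to peroxisome proliferators. It measured 4.40, 6.68, 6.09 and 7.11 FPKM in CON-pre and 9.17, 6.95, 8.29 and 9.80 in HFD-pre. After exercise it measured 5.26, 7.34, 7.11 and 7.35 in CON-post and 14.04, 9.14, 8.67 and 10.9 in HFD-post. The HFD-post libraries were all above the CON-post libraries, and 7 of 8 HFD libraries exceeded every CON library. The exception was HFD-pre replicate 2, at 6.95 FPKM. Over both states Pex11a averaged 6.42 ± 1.09 FPKM on CON and 9.62 ± 2.12 on HFD (SD, n = 8), a 1.498-fold higher mean. The diet difference was 0.54 (SE 0.12, 95% interval 0.30 to 0.79, adjusted p = 0.0321).

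The Pex11a call was close to the threshold. It was kept in 16 of 28 alternative fits, with log2 fold changes between 0.47 and 0.59 and adjusted p between 0.0211 and 0.0796. Single libraries whose omission ended the call of Pex11a were CON-pre replicates 1 (adjusted p = 0.0613) and 3 (0.0603), HFD-pre replicates 1 (0.0758), 3 (0.0610) and 4 (0.0796), CON-post replicates 1 (0.0536), 2 (0.0511) and 3 (0.0502), and HFD-post replicates 1 (0.0588) and 4 (0.0684). Without HFD-post replicate 1, the highest Pex11a library, the difference was 0.47, and it was 0.36 for Hsd17b4, which stayed called at an adjusted p of 0.0305.

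Adipocyte RNA was examined beside these 2 genes because fat cells also contain peroxisomes. Of the 14 adipocyte markers tested, 2 were higher on HFD (Lep, 2.54, and Cidea, 0.68) and 2 lower (Cfd, −1.77, and Adrb3, −0.73), with a median log2 fold change of 0.16. With an adipocyte marker score as a covariate, the diet difference was 0.36 for Hsd17b4 (adjusted p = 0.0206) and 0.55 for Pex11a (adjusted p = 0.0421). Plin1, the lipid droplet protein gene next to Pex11a on chromosome 7 and itself an adipocyte marker, differed by 0.14 (adjusted p = 0.857). The 10 muscle markers leaned the other way, with 9 of 10 lower on HFD, 0 called, 7 lower at an unadjusted p under 0.05 (10.4% of all genes in either direction) and a median of −0.15. Their sums were wholly lower in HFD-pre (83272 to 91330 FPKM) than in CON-pre (94897 to 105581), and overlapped between CON-post (84795 to 96502) and HFD-post (73280 to 90519). All 7 macrophage markers tested were lower on HFD, with 0 called, 0 at an unadjusted p under 0.05 and a median of −0.16, the lowest being the lysozyme gene Lyz2 at −0.33. All 5 liver markers tested were higher, with 0 called, 0 at an unadjusted p under 0.05 and a median of 0.35. The part of these markers in the results was not tested.

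An exact two-sided permutation test over the libraries, relabelled within each exercise state, gave p = 0.000816 each for Hsd17b4, Pex11a and Abcd3, where the smallest p the design allows is 0.000408. It gave p = 0.00449 for Crot and 0.0220 for Abcd2 by the same exact test. Adjusted over all 11256 genes, these permutation values became 0.0820, 0.186 and 0.348, so that none of the 8 genes passed by this route. The exact p was 0.716 for Ehhadh, 0.871 for Acaa1a and 0.567 for Acaa1b.

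**Figure D2:**
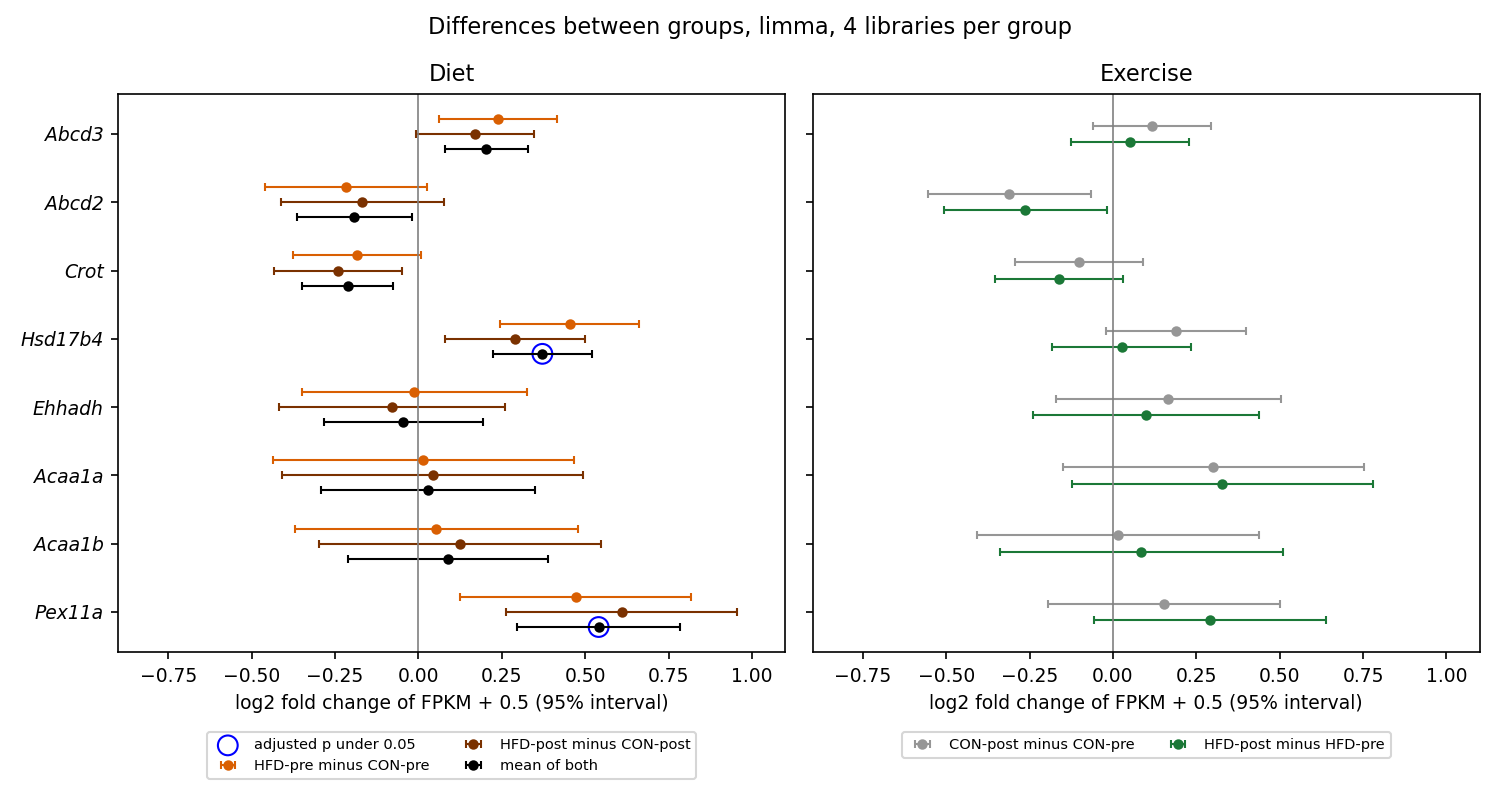
Log2 fold change of FPKM + 0.5 with its 95% interval (horizontal axes) for each gene in the diet contrasts (left) and the exercise contrasts (right), from limma with 4 libraries per group; blue rings mark an adjusted p under 0.05. Rings stand only at the averaged diet difference of Hsd17b4 (0.37) and Pex11a (0.54).

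Within the rested mice, none of the 8 genes passed the adjusted threshold, against 0.346% of all genes tested, and 3 of 8 had an unadjusted p under 0.05, against 8.25%. The largest differences were Pex11a at 0.47 (SE 0.16, adjusted p = 0.409) and Hsd17b4 at 0.45 (SE 0.10, adjusted p = 0.0657), followed by Abcd3 at 0.24 (adjusted p = 0.409). Hsd17b4 was the only gene of the 8 whose HFD-pre and CON-pre libraries did not overlap, where 5.62% of all genes did not overlap. It passed when FPKM were rescaled by upper quartile (0.48, adjusted p = 0.0186), by median of ratios (0.49, 0.0161) or by quantile normalization (0.48, 0.0208), with array weights (0.46, 0.0206), or without CON-post replicate 1 (0.45, 0.0122).

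Within the exercised mice, again 0 of 8 genes passed, against 0.151% of all genes, and 3 of 8 had an unadjusted p under 0.05, against 6.29%. Pex11a differed by 0.61 (SE 0.16, adjusted p = 0.248), Hsd17b4 by 0.29 (SE 0.10, adjusted p = 0.50) and Crot by −0.24 (SE 0.09, adjusted p = 0.598). Pex11a and Abcd3 were the 2 genes whose HFD-post libraries lay wholly above CON-post, where groups did not overlap for 3.16% of all genes. Without HFD-post replicate 1 the differences were 0.48 for Pex11a (adjusted p = 0.533), 0.11 for Abcd3 (0.945) and −0.17 for Crot (0.878), and the other 3 HFD-post libraries still lay above CON-post for Pex11a and Abcd3. Without CON-post replicate 1 the Hsd17b4 difference was 0.18 (adjusted p = 0.631).

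The second question was whether a single maximal run altered these genes within 3 h, and whether diet changed that response. On the control diet 0 of 8 genes passed, against 1.11% of all genes, and on HFD 0 of 8, against 0.542%. The lowest exercise differences were those of Abcd2, −0.31 on CON (SE 0.12, adjusted p = 0.281) and −0.26 on HFD (SE 0.12, adjusted p = 0.381), where it was −0.13 without HFD-post replicate 1. Its CON-post libraries lay wholly below CON-pre, the 1 gene of the 8 without overlap in that contrast, against 5.82% of all genes. On HFD none of the 8 separated, against 6.81%. Acaa1a differed by 0.30 on CON (SE 0.21, adjusted p = 0.659) and 0.33 on HFD (SE 0.21, adjusted p = 0.584), and Pex11a by 0.15 on CON (adjusted p = 0.787) and 0.29 on HFD (SE 0.16, adjusted p = 0.515). Single libraries moved these values: on CON, Acaa1a was 0.065 without CON-pre replicate 2 and 0.18 without CON-post replicate 2. Pex11a on CON was 0.018 without CON-pre replicate 1, 0.23 without CON-pre replicate 4 and 0.26 without CON-post replicate 1, and on HFD it was 0.16 without HFD-post replicate 1. As a positive reference for the exercise response, Ppargc1a, the coactivator of oxidative metabolism induced by muscle contraction, rose by 1.98 on CON (adjusted p = 4.38e-05) and 2.10 on HFD (adjusted p = 2.87e-05).

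No gene of the 8 showed a detectable interaction between diet and exercise. In limma 0 of 11256 genes passed, 356 (3.16%) had an unadjusted p under 0.05, and 0 of the 8 were among these. The interaction of Hsd17b4 was −0.16 (95% interval −0.46 to 0.13), with −0.27 without CON-post replicate 1 and −0.10 without CON-post replicate 4. For Pex11a it was 0.14 (95% interval −0.35 to 0.63), an interval that includes values as large as the diet difference itself (0.54). The Pex11a interaction was 0.27, 0.089 and 0.061 without CON-pre replicates 1, 2 and 4, 0.048 without HFD-pre replicate 2, 0.031 without CON-post replicate 1, and 0.0043 and 0.23 without HFD-post replicates 1 and 3.

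Because genes of the same role differed in sign or size, their ratio was computed within each library, which cancels any difference in library scaling apart from the pseudocount. These 3 pairs were chosen after the values had been seen, so the ratios are a description with no test. On FPKM + 0.5, the log2 ratio of Hsd17b4 to Ehhadh averaged 2.68 on CON and 3.09 on HFD, a difference of 0.42 beside a spread within groups of 0.26 (SD). Without a pseudocount the log2 ratio of FPKM averaged 2.93 on CON and 3.37 on HFD for Hsd17b4/Ehhadh, and the FPKM of Hsd17b4 was 6.33 to 10.1 times that of Ehhadh in CON-pre and 8.90 to 12.9 times in HFD-pre. After exercise it was 6.79 to 8.34 times in CON-post and 7.95 to 16.7 times in HFD-post, and without HFD-post replicate 4, the lowest Ehhadh library, the log2 difference of Hsd17b4/Ehhadh on FPKM + 0.5 was 0.32. The log2 ratio of Abcd3 to Abcd2 averaged 0.84 on CON and 1.24 on HFD, a difference of 0.40 (SD within groups 0.25). Its ratios of FPKM without a pseudocount were 1.41 to 1.92 in CON-pre, 1.81 to 2.49 in HFD-pre, 1.91 to 2.40 in CON-post and 2.20 to 4.19 in HFD-post.

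The thiolase ratio of Acaa1a to Acaa1b differed by −0.06 (SD within groups 0.19), and from −0.096 without CON-post replicate 4 to 0.0049 without HFD-pre replicate 1. The highest Abcd3 to Abcd2 ratio, 4.19, was from HFD-post replicate 1, and without that library the difference was 0.30 for Abcd3/Abcd2.

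**Figure D3:**
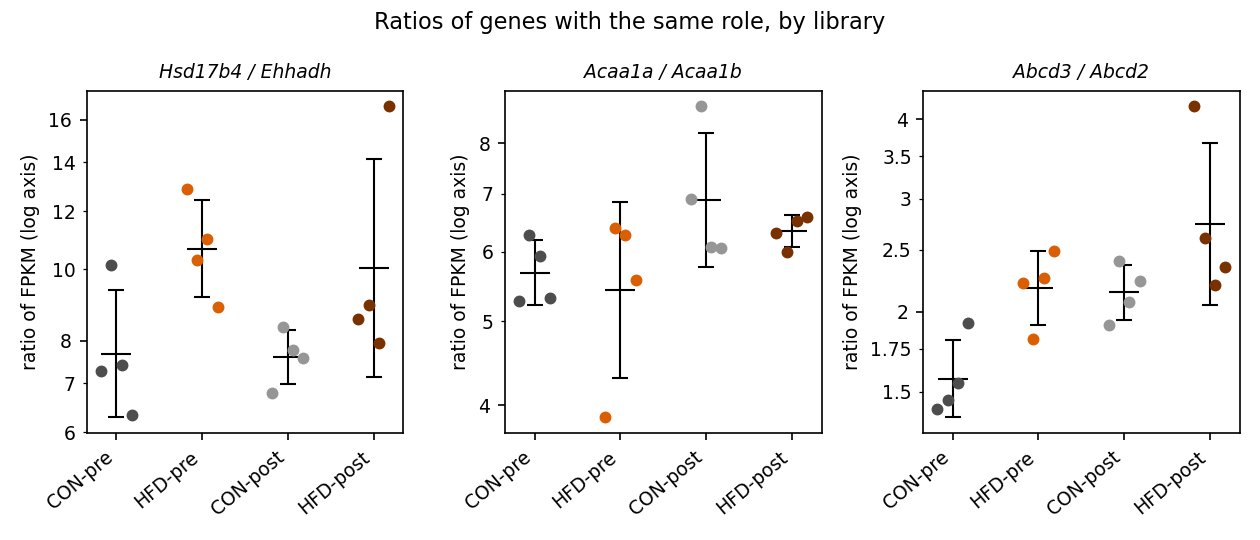
Ratio of the FPKM of genes with the same role in each library (vertical log axes) in the 4 groups; points are libraries, bars are geometric means and whiskers are SD on the log2 scale (n = 4). These ratios carry no pseudocount; Hsd17b4/Ehhadh and Abcd3/Abcd2 average 0.44 and 0.41 higher (log2) on HFD, and Acaa1a/Acaa1b differs by −0.09.

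The rest of the organelle was examined through fixed lists. In the averaged diet contrast 0.959% of all genes tested were called, with 0.489% higher and 0.471% lower. Of 21 tested genes of other peroxisomal β-oxidation steps, 4 rose with HFD and 0 fell: Ech1, an auxiliary enzyme for unsaturated chains found in peroxisomes and mitochondria (0.84, adjusted p = 1.47e-05), Acsl1, an acyl-CoA synthetase (0.32, 0.0157), Eci2, an enoyl-CoA isomerase (0.31, 0.00111), and Crat, carnitine acetyltransferase (0.24, 0.00372). The median of that list was 0.10. Like Ech1, the enzymes Acsl1, Eci2 and Crat are not confined to peroxisomes, so these 4 calls are not particular to the organelle. The lowest of the list was the thioesterase gene Acot8, at −0.34 (adjusted p = 0.343).

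Of 14 tested enzymes with other peroxisomal roles, 4 rose and 0 fell. They were the epoxide hydrolase gene Ephx2 (0.68, adjusted p = 0.000993), the dehydrogenase/reductase gene Dhrs4 (0.64, 0.000857), catalase Cat (0.50, 0.00267), which destroys the hydrogen peroxide made by the oxidases, and Hsdl2 (0.49, 0.00144). The list median was 0.05, and its lowest gene was Pmvk, at −0.26 (adjusted p = 0.347). Of 15 tested peroxins, which import matrix proteins and build the organelle, 0 were called and 1 had an unadjusted p under 0.05, with a median of 0.05 and the lowest value, −0.17, for Pex16.

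Mitochondrial β-oxidation is the parallel pathway for long and medium chains. Of its 17 genes, 12 rose with HFD and 0 fell, with a median of 0.41. They included Decr1 (0.72, adjusted p = 0.00016), Acadl (0.68, 1.85e-05), Acaa2, the mitochondrial thiolase (0.63, 0.00108), Slc25a20, the carnitine carrier (0.59, 0.000175), and Cpt1b, which commits fatty acids to the matrix (0.28, 0.00965). The others that rose were Hadha (0.47), Etfdh (0.47), Cpt2 (0.46), Acadvl (0.43), Acadm (0.41), Hadh (0.38) and Etfb (0.30), and the lowest of the list was Echs1 (−0.02, adjusted p = 0.958). Set beside this, 2 of 8 peroxisomal genes were called and their median was 0.06, where 0.959% of all genes tested were called. Levels differed too: in CON-pre the mitochondrial genes summed to between 903 and 1045 FPKM and the 8 genes to between 76.1 and 83.6. The part of expression level in the calls was not tested. The difference between lists was not tested.

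Of the 8 PPAR receptors and partner genes, 0 were called for diet, from −0.39 for Ppargc1a (adjusted p = 0.234) to 0.17 for Ppara (adjusted p = 0.582), with a median of −0.03 and 1 at an unadjusted p under 0.05. In the exercise contrasts, Acadl rose by 0.38 on CON (adjusted p = 0.0427). On HFD, Idh1, the peroxisomal and cytosolic isocitrate dehydrogenase, rose by 0.48 (adjusted p = 0.0173).

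**Figure D4:**
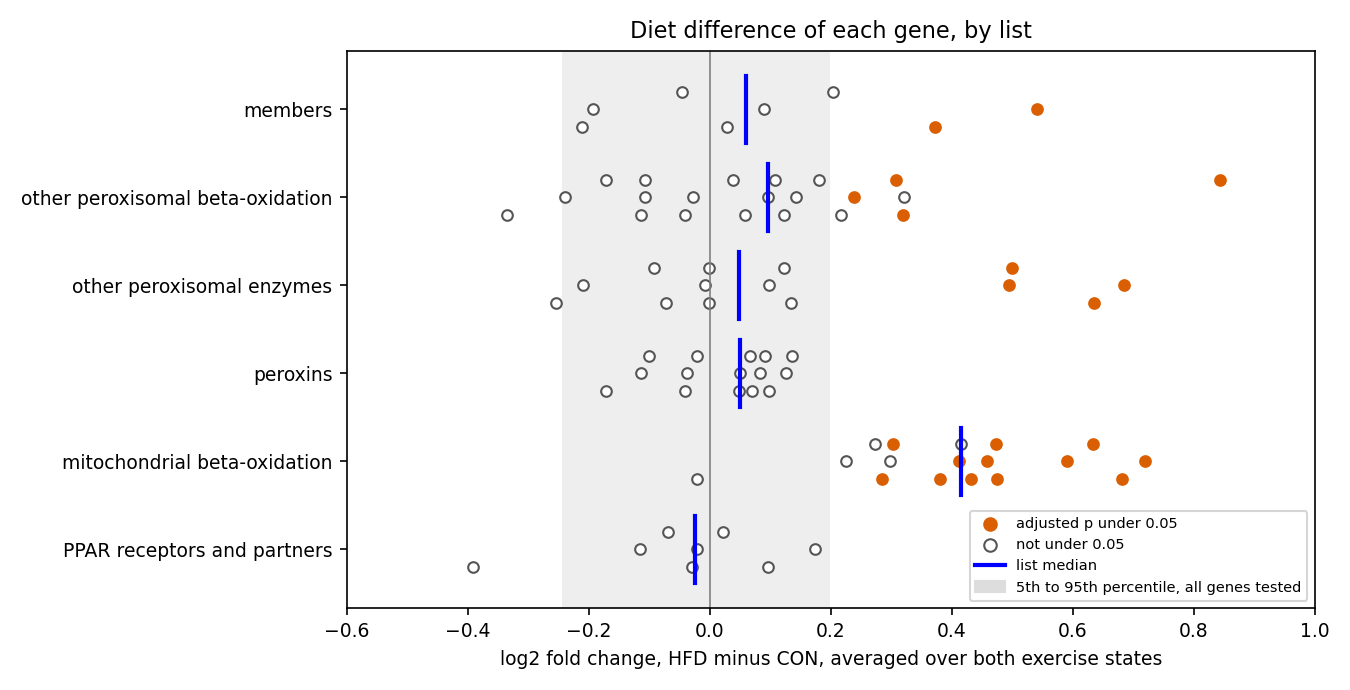
Diet difference of each gene (log2 fold change, HFD minus CON, averaged over both exercise states) by list; filled points have an adjusted p under 0.05, blue bars are list medians and the grey band spans the 5th to 95th percentile of the 11256 genes tested (−0.24 to 0.20). The medians are 0.06 for the 8 genes described here (top row) and 0.41 for mitochondrial β-oxidation.

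Among the 8 genes, some levels of log2(FPKM + 0.5) were correlated over the 16 libraries. Pex11a went with Abcd3 (Pearson r = 0.90) and Hsd17b4 (r = 0.81), Crot went with Abcd2 (r = 0.75), and the thiolases went together (r = 0.78). Ehhadh also went with Acaa1a (r = 0.63) and Acaa1b (r = 0.53). How reads were assigned between the thiolases may contribute to their correlation, and this was not tested. Pex11a and Crot ran in opposite directions (r = −0.74), as did Pex11a and Abcd2 (r = −0.75). These correlations describe libraries that share diet, exercise state and scaling, and group differences contribute to them. HFD-post replicate 1 was the highest library for Pex11a and Abcd3 and the lowest for Crot and Abcd2. The correlations were not computed without that library.

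The genes outside the 8 most like each member were found by the same correlation over the 16 libraries, among 5264 genes whose mean reached 5 FPKM. The 2 named for each member are the highest of that many correlations and were not tested. A search this wide over 16 libraries can return high values for unrelated genes, so the named genes are a description only. Pex11a was closest to Decr1 (r = 0.91), a mitochondrial dienoyl-CoA reductase, and to peroxisomal Hsdl2 (r = 0.90). Hsd17b4 was closest to the acyl-CoA synthetase Acsl1 (r = 0.90) and to Nfe2l1 (r = 0.88). Abcd3 was closest to the fatty acid translocase Cd36 (r = 0.90) and to P2ry2 (r = 0.90).

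Acaa1a was closest to Ndufs7 (r = 0.94), a subunit of respiratory complex I, and Atp5e (r = 0.94), a subunit of ATP synthase. Crot was closest to Blmh (r = 0.90) and Amotl1 (r = 0.87), and Abcd2 to Plcd4 (r = 0.90) and Sh3kbp1 (r = 0.89). Acaa1b was closest to Ptdss1 (r = 0.85) and Ubac1 (r = 0.83), and Ehhadh, with the lowest correlations of the 8, to Prob1 (r = 0.81) and Hnrnpll (r = 0.77).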

How the data were processed

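Quadriceps mRNA was sequenced in 16 libraries. Per the labels and the methods of the study, the authors checked reads with FastQC, aligned them with TopHat and estimated expression with Cufflinks on a build named as mm9, and they deposited FPKM values per gene and library. The gene loci printed with the study overlapped the gene of the same symbol for 692 of 692 on GRCm38.p6 and for 114 of 692 on mm9. The deposited values carry no coordinates, so their build was not checked. The table holds no counts, so only relative depth was estimated, from the smallest values, and no counting intervals are given. No column was left unused. Of 24487 entries, 27 whose symbols had become dates (0.0771% of FPKM) were dropped and 260 repeated symbols were summed.

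Genes whose mean reached 0.5 FPKM were fitted on log2(FPKM + 0.5) with limma 3.58.1 in R 4.3.3 (mean-variance trend, 4 groups in one fit, Benjamini-Hochberg over 11256 genes, calls at adjusted p under 0.05). The scripts were tested on simulated data. Single genes also had an exact permutation test of 4900 relabellings. The labels number the libraries 1 to 4 in each group and name no mouse, so p-values measure the spread between these samples. Promoters came from RefSeq GRCm38.p6 and were matched by symbol for 6 of 8 genes. Other genes were named where called, or as the highest and lowest of a list, or as the 2 closest by correlation. Some genes of the lists are not reported here by name. Members and lists were chosen with earlier results of these data known. Alternatives covered the pseudocount (0.1 and 1), the filter, scaling, weights, covariates, a replicate block and the omission of each library.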

Additional observations from a re-analysis of the deposited data

Results flagged for a closer look

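In 3 of 32 groups of 4 libraries, 1 library lay far from the other 3 by Dixon's criterion, which chance meets in about 1 group in 20. Ehhadh was at 1.43 FPKM in HFD-post replicate 4, with a gap of 0.847 of the group's range, and the diet difference of Ehhadh without that library was 0.04. Pex11a was at 5.26 FPKM in CON-post replicate 1 (0.883 of the range). Abcd3 was at 24.1 FPKM in HFD-post replicate 1 (0.837 of the range), the library that was also the highest for Pex11a and the lowest for Crot and Abcd2.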

How the results depend on the processing

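The diet difference of Hsd17b4 averaged over exercise state kept its direction and its call in 28 of 28 alternative fits. The number of the 8 genes called in that contrast was 1 with no filter on low values (Pex11a at an adjusted p of 0.0734) and 1 with a replicate block (Pex11a at 0.0607), and from 1 to 3 on leaving out single libraries. For the rested mice it was 1 (Hsd17b4) under quantile, upper-quartile or median-of-ratios scaling and under array weights, and from 0 to 1 on leaving out single libraries. No count changed in the exercise or interaction contrasts. The replicate numbers did not pair the libraries: deviations of same-numbered libraries correlated between −0.22 and 0.21 over 24 pairs, 3 of 16 libraries correlated best with their own number, and the block moved the calls over all genes from 108 to 87. Over all genes the diet contrast gave from 87 with the block to 137 with array weights among the settings that kept every library, against 108, and in rested mice array weights gave 63 against 39. Fits of only the 2 groups compared gave 32 calls (15 higher, 17 lower) in rested mice against 27 higher and 12 lower, 2 in exercised mice against 17, and 72 in exercise on CON against 125. In exercise on CON, upper-quartile scaling gave 102 higher and 38 lower and quantile normalization 113 and 41, against 109 and 16. In exercise on HFD, upper-quartile and quantile scaling each gave 40 higher and 20 lower and median of ratios 41 and 13, against 55 and 6, while the adipocyte covariate gave 20 calls and no filter 37, against 61. On leaving out single libraries the calls over all genes fell for diet in rested mice to 21 (without CON-pre replicate 1 or 2) and 23 (without HFD-pre replicate 1, 3 or 4), against 39. For diet in exercised mice they fell to 11 (without CON-post or HFD-post replicate 1), 10 (HFD-post replicate 4), 8 (CON-post replicate 3) and 5 (CON-post replicate 2), against 17. For exercise on HFD they fell to 36 (leaving out HFD-pre replicate 3 or, alternatively, HFD-post replicate 4), 26 (HFD-pre replicate 1), 24 (HFD-post replicate 3) and 21 (HFD-pre or HFD-post replicate 2), against 61. They ran from 88 to 187 for exercise on CON, from 76 to 124 for the averaged diet contrast, and from 0 to 1 for the interaction. The exact test of Abcd2 passed 0.05 unadjusted in 17 of 18 alternatives (permutation p up to 0.0588, without CON-post replicate 1).

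Differences near 0 changed sign, none of them called, and the cause was not tested. With each library left out, the averaged diet difference ran from −0.11 to 0.038 for Ehhadh, −0.089 to 0.099 for Acaa1a and −0.017 to 0.16 for Acaa1b, the same in limma and the exact test. In rested mice these ranges were −0.14 to 0.066 for Ehhadh, −0.22 to 0.16 for Acaa1a and −0.16 to 0.19 for Acaa1b. In exercised mice they were −0.15 to 0.087 for Ehhadh and −0.082 to 0.17 for Acaa1a. For exercise on CON it was −0.20 to 0.15 for Acaa1b. For exercise on HFD they were −0.0085 to 0.11 for Abcd3, −0.023 to 0.18 for Acaa1b and −0.013 to 0.079 for Hsd17b4. For the interaction they were −0.025 to 0.18 for Abcd2, −0.11 to 0.26 for Acaa1a, −0.065 to 0.28 for Acaa1b, −0.14 to 0.017 for Crot and −0.14 to 0.099 for Ehhadh. Upper-quartile scaling gave 0.0080 for Ehhadh in rested mice, −0.0044 for Acaa1b in exercise on CON, −0.012 for Abcd3 and −0.037 for Hsd17b4 in exercise on HFD, and −0.0069 for the interaction of Acaa1a. Median-of-ratios scaling gave 0.021 for Ehhadh in rested mice, −0.011 for Hsd17b4 in exercise on HFD and −0.013 for the interaction of Acaa1a. Quantile normalization gave 0.045 for Ehhadh in rested mice, −0.011 for Abcd3 and −0.032 for Hsd17b4 in exercise on HFD, and −0.016 for the interaction of Acaa1a. Array weights gave −0.016 for Acaa1a averaged, −0.058 for Acaa1a and −0.0089 for Acaa1b in rested mice, and −0.026 for the interaction of Pex11a. The adipocyte covariate gave 0.0096 for Ehhadh in exercised mice, −0.014 for Hsd17b4 in exercise on HFD, and interactions of −0.026 for Abcd2 and 0.054 for Ehhadh.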

Other observations

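CON-pre replicate 2 and HFD-post replicate 1 each held the highest or the lowest of the 16 values for 4 of the 8 genes. CON-pre replicate 2 was the highest for Crot and Abcd2 and the lowest for Acaa1a and Acaa1b. HFD-post replicate 1 was the highest for Pex11a and Abcd3 and the lowest for Crot and Abcd2.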
